A study of Mus musculus with 16 samples.

Results

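The renin-angiotensin system was described here through 8 genes of the mouse kidney, read from a table of 23935 gene symbols. They were chosen by name: Agt, Ren1, Ace, Mme, Enpep, Tmem27, Agtr1a and Mas1. Most of them encode proteins that make angiotensin, cut it or receive it, and Tmem27 does none of these. Of 9 names listed, 8 matched 1 entry each. The name Atp6ap2x matched no entry, and Atp6ap2 is described with the wider pathway. All 8 matched genes passed the filter on low values, which asked for at least 1 TPM, a transcript abundance scaled to a fixed library total, in at least 4 of 16 libraries.

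The libraries were made from RNA of whole kidneys of wild-type mice, in 4 groups of 4. One group had PBS, one had cisplatin, a platinum drug that injures the kidney tubule, and in the other two cisplatin was preceded by an injection of a precursor of the cofactor NAD, either NMN (nicotinamide mononucleotide) or NR (nicotinamide riboside). Kidneys were taken 3 days after cisplatin, and the sources used here do not give strain, sex, age or doses. Below, NMN and NR stand for cisplatin with that precursor. Since no label says that libraries of a group came from separate animals, the p-values reflect only how these samples vary, which may be technical variation.

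Angiotensinogen, encoded by Agt, is the only precursor of the angiotensins. Renin, stored and secreted by juxtaglomerular cells of the afferent arteriole, cleaves it to angiotensin I, and the converting enzyme Ace trims that to angiotensin II, which acts on the type 1 receptor to constrict vessels and retain sodium. The kidney also holds a system of its own: the brush border of the proximal tubule carries Ace and the peptidases that break angiotensins down, and the tubule makes angiotensinogen. In a bulk sample of kidney, fewer cells of a type and less RNA per cell cannot be told apart.

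The 8 genes lie on 7 chromosomes of the GRCm38 build (GENCODE vM21 annotation). Ren1 spans chr1:133350510-133360325 and Agt chr8:124556534-124569706. Ace spans chr11:105967945-105989964. Mme (chr3:63241537-63386030) and Enpep (chr3:129269175-129332720) share chromosome 3. Tmem27, annotated as Cltrn, spans chrX:164088830-164118860. Agtr1a spans chr13:30336441-30382867 and Mas1 chr17:12841079-12868143.

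The promoters of 3 genes are shown because the results turn on them: renin and Tmem27 were low after cisplatin, and Agt was high. Each run holds the 250 bases before a RefSeq start site of GRCm38.p6, 5′ to 3′ on the gene's strand, with motif matches in capitals. They come from chr1:133350424-133350673 (plus strand), chr8:124569707-124569956 (minus strand) and chrX:164089937-164090186 (plus strand, the first of 2 start sites of Tmem27).

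Ren1: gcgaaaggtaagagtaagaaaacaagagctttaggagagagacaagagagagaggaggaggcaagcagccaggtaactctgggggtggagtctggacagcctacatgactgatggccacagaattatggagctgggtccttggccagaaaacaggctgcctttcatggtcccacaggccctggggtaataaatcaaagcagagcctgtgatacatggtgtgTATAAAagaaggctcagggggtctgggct

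Agt: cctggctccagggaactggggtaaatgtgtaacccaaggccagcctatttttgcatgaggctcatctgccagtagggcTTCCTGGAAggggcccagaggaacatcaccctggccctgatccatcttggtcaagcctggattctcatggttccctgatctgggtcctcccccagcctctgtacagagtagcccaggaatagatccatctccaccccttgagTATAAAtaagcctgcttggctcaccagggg

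Tmem27: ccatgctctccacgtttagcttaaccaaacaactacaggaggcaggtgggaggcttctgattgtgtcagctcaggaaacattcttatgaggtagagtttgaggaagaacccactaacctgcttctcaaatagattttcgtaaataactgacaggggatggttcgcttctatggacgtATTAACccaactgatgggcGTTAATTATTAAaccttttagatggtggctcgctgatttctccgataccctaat

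The Ren1 run holds TATAAA, the core of a TATA box, from 29 to 24 bases upstream of the start. The Agt run holds TATAAA from 30 to 25 bases upstream and TTCCTGGAA, a match to the STAT motif TTCNNNGAA, from 172 to 164 bases upstream. Among promoters not shown, a window of Mme (TTCCATGAA, from 166 to 158 bases upstream) also holds a STAT match. So does that of Enpep (TTCTCTGAA, from 141 to 133), and both genes fell with cisplatin. The Tmem27 run holds GTTAATTATTAA, a match to GTTAATNATTAA, the palindrome of HNF1 factors without its last base, from 54 to 43 bases upstream. Its first 6 letters are also the half-site GTTAAT, which occurs once more on the opposite strand (ATTAAC as printed) from 73 to 68 bases upstream. Both strands were searched for 6 motifs, the others being CAAAGTCCA (HNF4) and TGACGTCA (CRE), neither of which is in these 3 runs.

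Of 32851 mouse promoter windows of this length, 12.4% held TATAAA, 7.02% TTCNNNGAA, 6.43% GTTAAT, 1.55% TGACGTCA, 0.384% CAAAGTCCA and 0.0609% the shortened HNF1 palindrome. The last share was 20 windows. The 20 windows belong to 20 genes, of which 9 were tested. After cisplatin 6 of these 9 fell, Tmem27 and Prodh2 (log2 change -3.80) among them, 1 rose (Gc, 5.82) and 2 did not pass the test. Of all 12960 tested genes 18.6% fell and 40.7% rose. Whether the motif has a part in the changes of these 9 genes was not tested. The full palindrome was not searched, and the Tmem27 run has another base at its last position. A motif match is a description of the letters only. The promoter of Agtr1a is not shown.

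Cisplatin lowered 6 of the 8 genes and raised 1. Ren1, Ace, Agtr1a, Mme, Enpep and Tmem27 fell, Agt rose, and Mas1 did not pass the test. Calls were made with limma on log2(TPM + 1) at a Benjamini-Hochberg adjusted p under 0.05 over 12960 genes. Most genes moved in this comparison: 59.4% of all tested genes were called, 18.6% lower and 40.7% higher, so that 7 of 8 called is to be read against a high background. The median log2 change of the 8 genes was -1.63, against 0.27 for all genes. The 4 cisplatin libraries did not overlap the 4 PBS libraries for 6 of the 8 genes, and for 50.8% of all genes.

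**Figure D1:**
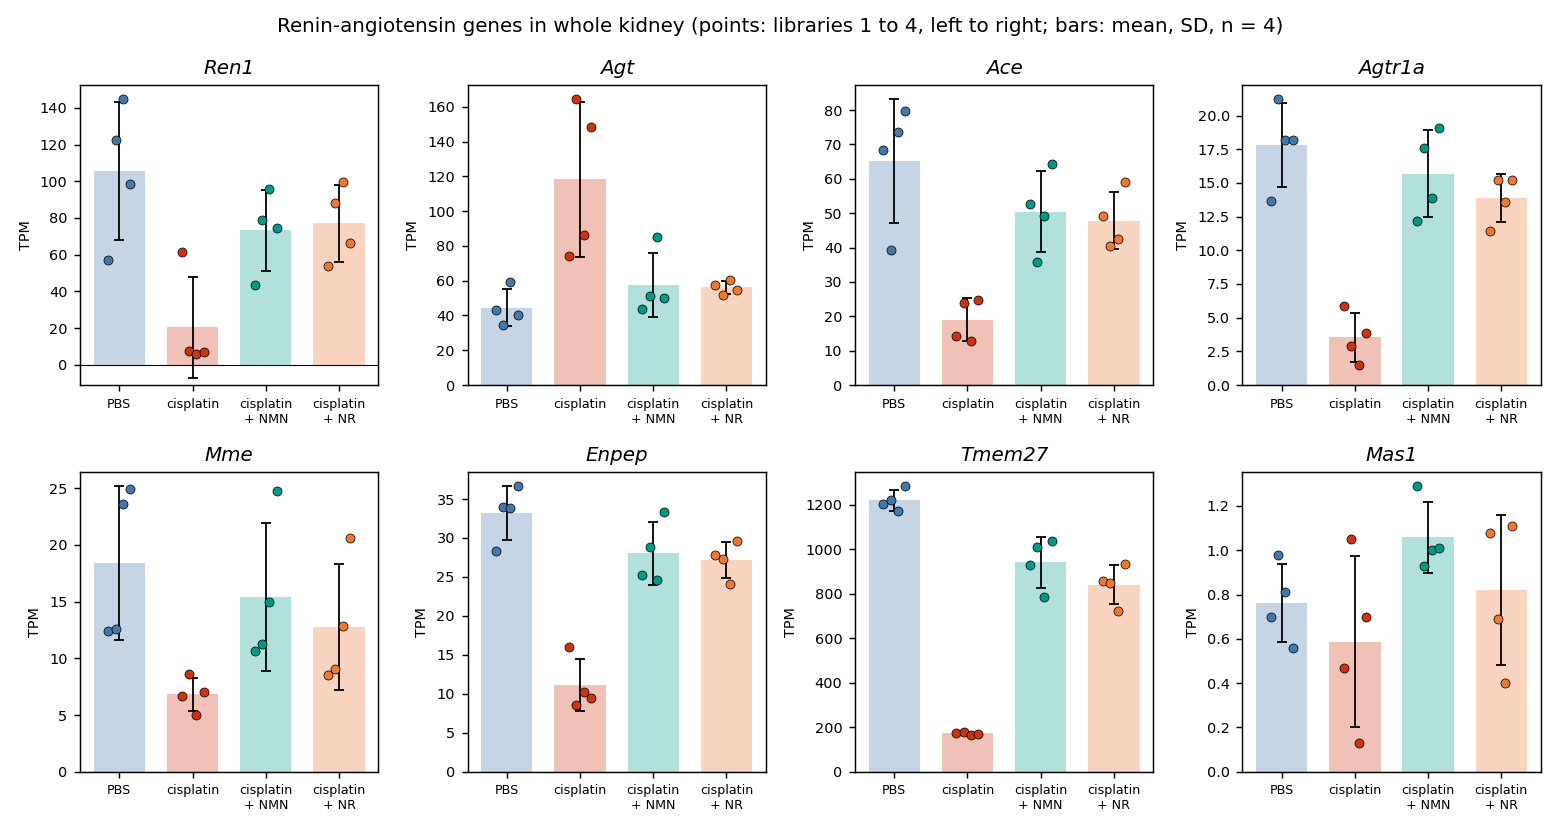
TPM of the 8 genes in each library, with 1 panel per gene and a linear vertical axis that differs between panels. Points are libraries of the 4 groups, and the bar and whiskers are the group mean and SD (n = 4); the whisker of Ren1 with cisplatin runs below 0 because of the spread. Every cisplatin library lies below every other library for Ace, Agtr1a, Enpep and Tmem27, the cisplatin mean is the highest for Agt, and 1 cisplatin library lies apart for Ren1.

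The substrate rose. Agt measured 43.2, 34.6, 59.3 and 40.5 TPM in PBS libraries 1 to 4 and 74.3, 164, 86.2 and 148 TPM in the cisplatin libraries. Every cisplatin library lay above every PBS library, and the cisplatin libraries fell into a lower pair (1 and 3) and a higher pair (2 and 4). The mean was 44.4 ± 10.5 TPM with PBS and 118 ± 44.6 TPM with cisplatin (SD, n = 4 each), a ratio of 2.66. The log2 change was 1.34 (SE 0.239, adjusted p = 0.000114).

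With the precursors Agt returned toward the PBS level. It measured 43.9, 51.2, 84.9 and 50.3 TPM with NMN and 57.7, 51.8, 60.1 and 54.9 TPM with NR. NR libraries all lay below the lowest cisplatin library, while NMN library 3 lay above cisplatin library 1. Agt fell against cisplatin alone with NMN by 0.99 on the log2 scale (SE 0.239, adjusted p = 0.00234) and with NR by 0.98 (adjusted p = 0.00276). Against PBS the differences were 0.35 (95% interval -0.16 to 0.85) and 0.36 (-0.15 to 0.86), and neither passed the test.

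The summed TPM of 8 adipose markers was 201 to 403 in the cisplatin libraries and 25.5 to 120 in PBS. It was 25.2 to 103 with NMN, and with NR it was 23.2, 105, 381 and 234 in libraries 1 to 4. In cisplatin libraries 1 to 4 it was 378, 201, 403 and 221. Fat also makes Agt, and the part of fat in the Agt result was not tested.

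Renin had the largest SE of the 8 genes in the fit of all 16 libraries, with 1 cisplatin library far from its group. Ren1 measured 57.0, 122, 145 and 98.6 TPM in the PBS libraries and 61.4, 7.53, 5.82 and 6.95 TPM in the cisplatin libraries. Cisplatin libraries 2 to 4 lay far below every other library, whereas cisplatin library 1 lay above PBS library 1. Renin fell with cisplatin by 2.95 on the log2 scale (SE 0.573, adjusted p = 0.000464), and without cisplatin library 1 it fell by 3.71 (SE 0.297, adjusted p = 2.49e-08). Some mouse strains carry a near-identical renin gene, Ren2, which was not analysed here, and reads of the pair could be counted under Ren1.

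Ren1 was high again in every precursor library. It measured 43.3, 78.9, 96.0 and 74.7 TPM with NMN and 53.9, 88.3, 99.7 and 66.3 TPM with NR. All 8 lay above cisplatin libraries 2 to 4, and NMN 1 and NR 1 lay below cisplatin library 1. Against cisplatin Ren1 rose by 2.45 with NMN (adjusted p = 0.00267) and by 2.54 with NR (adjusted p = 0.00229), or by 3.21 and 3.29 without cisplatin library 1. Against PBS it differed by -0.50 (95% interval -1.73 to 0.73) with NMN and by -0.41 (-1.64 to 0.82) with NR, and neither passed the test. These intervals include the spread of the cisplatin libraries. Without cisplatin library 1 the SE of both differences was 0.275, and neither passed the test (limma, adjusted p = 0.393 and 0.42).

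Podocyte and endothelial markers moved with renin. The sum of 8 podocyte markers was 103 to 211 TPM with PBS, 124 TPM in cisplatin library 1 and 30.6 to 38.3 TPM in cisplatin libraries 2 to 4. The sum of 9 endothelial markers was 108 to 203 TPM with PBS, 60.5 TPM in cisplatin library 1 and 19.6 to 24.7 TPM in the other 3. Cisplatin library 1, highest of its group for renin, was also highest for the podocyte and the endothelial sum. With cisplatin 7 of 8 podocyte and 9 of 9 endothelial markers fell. Of 10 markers of mesangial cells, pericytes and vascular smooth muscle, 5 fell, 1 rose and 4 did not pass the test. Over all tested genes 18.6% fell and 40.7% rose with cisplatin. The sum of the 10 mesangial, pericyte and muscle markers was 66.4 to 134 TPM with PBS. It was 77.7 TPM in cisplatin library 1 and 57.1 to 62.8 TPM in the other 3. The part of all these markers in the renin result was not tested.

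**Figure D2:**
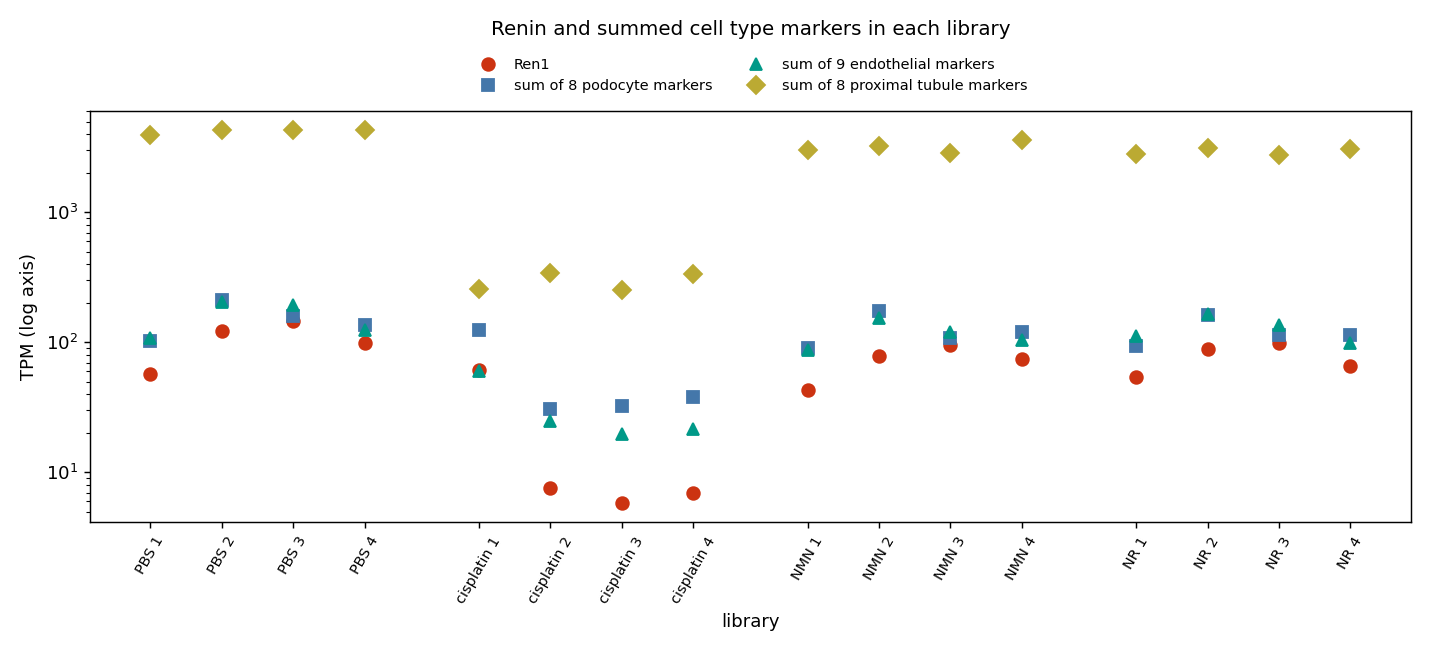
TPM of Ren1 and summed TPM of podocyte, endothelial and proximal tubule markers in each of the 16 libraries, on a log axis. Ren1, podocyte and endothelial values are higher in cisplatin library 1 than in cisplatin libraries 2 to 4, while proximal tubule markers are low in all 4 cisplatin libraries (254 to 341 TPM).

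Of 9 genes listed for juxtaglomerular renin cells, renin included, 4 fell with cisplatin, 1 rose and 4 did not pass the test. Besides Ren1 these were Akr1b7, an aldo-keto reductase made together with renin (-1.37, adjusted p = 0.00105), Rgs5, a signalling regulator of pericytes (-1.91, adjusted p = 1.54e-05), and Npr1, the receptor of atrial natriuretic peptide (-0.79, adjusted p = 0.032). Ptger4, a prostaglandin E receptor through which renin release is stimulated, rose by 0.75 (adjusted p = 0.00818). The connexin genes Gja5 (-0.09, adjusted p = 0.743) and Gja4 (-0.67, adjusted p = 0.0949) did not pass the test. The median change of the list was -0.67, against 0.27 for all genes. The 5 calls among 9 genes are to be read against 59.4% of all tested genes called, 18.6% lower and 40.7% higher.

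Of 9 tested genes listed as regulators of the renin gene, 3 fell and none rose. The nuclear receptors Nr2f2 (-1.04, adjusted p = 0.000388), Nr1h3 (-0.83, adjusted p = 0.000465) and Vdr (-0.53, adjusted p = 0.00257) fell. Creb1, Crebbp, Ep300, Gnas, Notch1 and Rbpj did not pass the test, with changes from -0.08 (Gnas) to 0.48 (Rbpj). The list had a median change of 0.09, against 0.27 for all genes. Its 3 calls among 9 genes are a smaller share than the 59.4% called over all tested genes (18.6% lower, 40.7% higher).

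The macula densa signals to the renin cells. Ptgs2, its inducible cyclooxygenase, rose with cisplatin from 0.0475 ± 0.0411 to 2.91 ± 1.24 TPM (log2 change 1.85, adjusted p = 3.2e-07). Slc12a1, the sodium-potassium-chloride cotransporter of the loop of Henle and macula densa, fell by 1.19 (adjusted p = 0.0181). Ptgs2 averaged 1.03 TPM with NMN and 1.4 TPM with NR, and it is also made by other cells. Of 5 genes listed for the macula densa only Ptgs2 and Slc12a1 passed the filter on low values. Below it, Nos1 averaged 0.38 TPM with PBS and 0 with cisplatin, Pappa2 0.0825 and 0.01, and Bmp3 0.455 and 0.792.

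The converting enzyme fell. Ace measured 68.3, 39.2, 73.5 and 79.8 TPM with PBS and 14.3, 23.9, 12.8 and 24.7 TPM with cisplatin, and every cisplatin library lay below every other library of the study. The log2 change was -1.74 (SE 0.242, adjusted p = 7.57e-06). Ace measured 52.7, 35.7, 49.1 and 64.3 TPM with NMN and 49.2, 40.5, 42.6 and 59.0 TPM with NR. It rose against cisplatin by 1.39 with NMN (adjusted p = 0.000133) and by 1.33 with NR (adjusted p = 0.000234). Its differences from PBS, -0.35 (95% interval -0.85 to 0.16) and -0.41 (-0.92 to 0.10), did not pass the test.

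The balance of Agt and Ren1 transcripts differed widely between groups, and neither protein was measured. The ratio of Agt to Ren1 was 0.283 to 0.757 with PBS, 14.8 to 21.8 in cisplatin libraries 2 to 4, 1.21 in cisplatin library 1, 0.649 to 1.01 with NMN and 0.587 to 1.07 with NR. Cisplatin library 1 lay above every library of the other groups, and far below cisplatin libraries 2 to 4. Such a ratio within a library does not depend on the scaling between libraries.

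The peptidases of the brush border fell. Enpep encodes aminopeptidase A, which turns angiotensin II into angiotensin III, and measured 28.3, 34.0, 33.8 and 36.6 TPM with PBS and 15.97, 8.55, 10.3 and 9.49 TPM with cisplatin. The cisplatin libraries lay below all others, with library 1 the highest of them. Enpep fell by 1.53 (SE 0.160, adjusted p = 1.89e-07). It measured 25.2, 28.9, 24.6 and 33.4 TPM with NMN and 27.8, 27.3, 24.1 and 29.6 TPM with NR, and rose against cisplatin by 1.29 (adjusted p = 3.5e-06) and 1.26 (adjusted p = 5.98e-06).

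Mme encodes neprilysin, an endopeptidase that cuts angiotensins and natriuretic peptides. It measured 12.4, 12.6, 23.6 and 24.9 TPM with PBS and 6.70, 8.60, 5.02 and 6.99 TPM with cisplatin. The groups did not overlap, and PBS libraries 3 and 4 lay well above PBS libraries 1 and 2. Mme fell by 1.26 (SE 0.298, adjusted p = 0.0015).

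With NMN it measured 10.6, 11.2, 14.9 and 24.8 TPM and with NR 8.55, 9.04, 12.9 and 20.6 TPM, and NR library 1 overlapped the cisplatin group. The rise against cisplatin was 1.01 with NMN (adjusted p = 0.00952) and 0.75 with NR (adjusted p = 0.0468). The call with NR was lost when any 1 of 6 libraries was left out: cisplatin 1 (0.75, adjusted p = 0.0787), cisplatin 3 (0.63, 0.123), cisplatin 4 (0.77, 0.0726), NMN 3 (0.75, 0.0557), NR 3 (0.72, 0.0901) or NR 4 (0.51, 0.17). It was also lost with no minimum TPM (adjusted p = 0.0744) and without trend and robust moderation (adjusted p = 0.0528).

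Tmem27 was the most abundant of the 8 genes by TPM, a value per transcript length, in every library. It encodes collectrin, a membrane protein that carries amino acid transporters to the brush border and does not itself cut angiotensin. It measured 1204, 1224, 1174 and 1285 TPM with PBS and 176, 180, 165 and 172 TPM with cisplatin. The groups lay far apart and the SD within each was small, 47.2 TPM with PBS and 6.30 TPM with cisplatin. The PBS mean was 7.06 times the cisplatin mean, and the log2 change was -2.81 (SE 0.099, adjusted p = 1.11e-13).

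With NMN Tmem27 measured 932, 1012, 786 and 1038 TPM and with NR 859, 849, 723 and 935 TPM. All lay above every cisplatin library and below every PBS library. Against cisplatin it rose by 2.43 with NMN (adjusted p = 1.79e-12) and by 2.27 with NR (adjusted p = 5.12e-12).

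The proximal tubule as a whole moved with these genes. The sum of 8 markers of all its segments was 3977 to 4339 TPM with PBS, 254 to 341 TPM with cisplatin, 2865 to 3631 TPM with NMN and 2778 to 3147 TPM with NR, and all 8 markers fell with cisplatin. Of 12 tested further enzymes of the brush border and lumen, all 12 fell, with a median change of -2.04 against 0.27 for all genes. The share of all tested genes that fell was 18.6%. Dpep1, a dipeptidase of glutathione breakdown, fell by 4.13, Ggt1, the gamma-glutamyl transferase, by 2.22, and Dpp4, a dipeptidyl peptidase, by 1.21. The falls of Ace (-1.74), Enpep (-1.53) and Mme (-1.26) lay within the range of these 12 enzymes, from -5.04 (Dnase1) to -0.36 (Tmprss2). The part of the tubule markers in the falls of these 3 genes was not tested.

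Ribosomal protein transcripts and red cell transcripts also differed between the groups. The sum of 10 ribosomal protein genes was 4530 to 5548 TPM with PBS and 13418 to 14513 TPM with cisplatin, and 6073 to 8297 TPM with the precursors. The sum of 6 red blood cell genes was 1882 to 3825 TPM with PBS and 8.60 to 34.4 TPM with cisplatin. Their part in the results was not tested. Markers of the adrenal gland, which lies on the kidney, summed to 0.44 to 3.56 TPM over 12 genes in all libraries, and 4 of them were listed at 0 throughout.

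The type 1 receptor fell. Agtr1a, the main angiotensin II receptor gene of mouse kidney, measured 13.6, 21.2, 18.2 and 18.2 TPM with PBS and 5.87, 2.92, 1.51 and 3.89 TPM with cisplatin. The groups did not overlap. The PBS mean was 5.02 times the cisplatin mean, and the log2 change was -2.12 (SE 0.237, adjusted p = 4.4e-07). Cisplatin library 1, highest for renin, was also highest for Agtr1a within its group.

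Agtr1a measured 12.2, 17.6, 13.9 and 19.1 TPM with NMN and 11.5, 15.3, 13.6 and 15.2 TPM with NR, all above the cisplatin libraries and overlapping PBS. It rose against cisplatin by 1.95 with NMN (adjusted p = 2.85e-06) and by 1.79 with NR (adjusted p = 8.99e-06). The differences from PBS were -0.18 (95% interval -0.67 to 0.32) and -0.33 (-0.83 to 0.17). Its relatives were nearly absent: Agtr1b averaged at most 0.065 TPM and Agtr2 at most 0.025 TPM in any group.

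Mas1 encodes the receptor of the vasodilating arm of the system. It measured 0.70, 0.98, 0.81 and 0.56 TPM with PBS and 0.47, 1.05, 0.13 and 0.70 TPM with cisplatin, and the groups overlapped. With NMN it measured 1.29, 0.93, 1.00 and 1.01 TPM and with NR 1.08, 0.69, 0.40 and 1.11 TPM. Its change with cisplatin was -0.18 (95% interval -0.61 to 0.25, adjusted p = 0.47). NMN against cisplatin gave 0.40 (adjusted p = 0.109), which passed the test without cisplatin library 2 (0.54, adjusted p = 0.0445) and after median-of-ratios scaling (0.50, adjusted p = 0.0407). Levels this low are close to the pseudocount of 1 TPM, so that the log2 changes understate the ratios.

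Both precursors gave the same count against cisplatin alone: 7 of 8 genes called, 6 higher and 1 lower. Among all tested genes 49.1% were called with NMN, 15.1% higher and 34% lower, and 46.6% with NR, 14.4% higher and 32.2% lower. The median change of the 8 genes was 1.34 with NMN and 1.29 with NR, against -0.23 and -0.2 for all genes. For each precursor 5 of 8 genes did not overlap cisplatin, against 44.3% and 41.8% of all genes. The 3 comparisons share the cisplatin libraries, so their values are given side by side and not correlated.

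**Figure D3:**
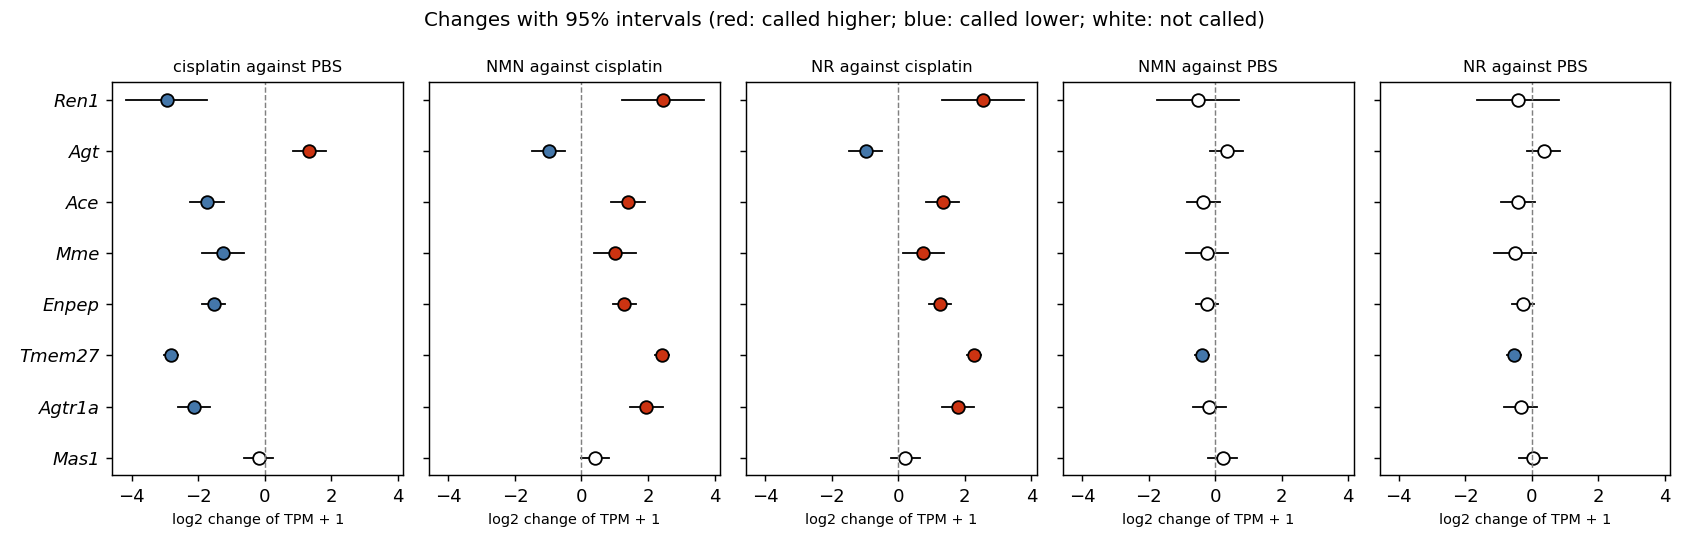
Log2 change of TPM + 1 with its 95% interval from limma for the 8 genes, for cisplatin against PBS, each precursor against cisplatin, and each precursor against PBS (red called higher, blue called lower, white not called). For 7 genes the interval of the cisplatin change lies on 1 side of 0 and that of each precursor against cisplatin on the other side, while against PBS only the intervals of Tmem27 exclude 0.

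Against PBS only Tmem27 was called, lower with both precursors. In all 6% of genes were called for NMN, 5.89% higher and 0.116% lower, and 10% for NR, 8.79% higher and 1.21% lower. The difference was -0.38 with NMN (SE 0.099, adjusted p = 0.0244) and -0.54 with NR (adjusted p = 0.00104), and the PBS means were 1.30 and 1.45 times the NMN and NR means. The groups did not overlap for either, against 10.2% and 14.8% of all genes. The NMN call was lost without PBS 1 (-0.39, adjusted p = 0.0535), PBS 4 (-0.36, 0.083), NMN 1 (-0.38, 0.0609) or NMN 3 (-0.30, 0.119), while the NR call held with each library left out.

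By group mean the order was PBS, NMN, NR and cisplatin for Ace, Agtr1a, Mme, Enpep and Tmem27. It was PBS, NR, NMN and cisplatin for Ren1, cisplatin, NMN, NR and PBS for Agt, and NMN, NR, PBS and cisplatin for Mas1. NMN and NR overlapped for all 8 genes (1.64% of all genes did not overlap), and PBS overlapped both for all but Tmem27.

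NMN and NR were not told apart. None of the 8 genes was called between them, none had an unadjusted p under 0.05 in limma, and of all genes 0% were called and 370 of 12960 had an unadjusted p under 0.05. The intervals give what these data leave possible when the libraries are taken as unpaired. For Tmem27 NMN was 0.967 to 1.29 times NR on the TPM + 1 scale, for Enpep 0.811 to 1.29 times, for Agt 0.701 to 1.41 times and for Ace 0.733 to 1.48 times. For Ren1 the interval ran from 0.401 to 2.21 times. Its width includes the spread of the cisplatin libraries, because all 4 groups share 1 estimate. Without cisplatin library 1 the log2 difference of Ren1 was -0.09 with an SE of 0.275, against 0.573 with that library.

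Other genes of the pathway moved in both directions. Of 23 listed, 21 were in the table (Ren2 and Cltrn, the current symbol of Tmem27, had no entry) and 14 were tested. With cisplatin 7 rose, 6 fell and 1 did not pass the test, with a median of 0.17 against 0.27 for all genes. Over all tested genes 59.4% were called, 40.7% higher and 18.6% lower. With libraries scaled by the median of ratios, 3 of the 14 rose and 7 fell. That scaling took the median of all genes from 0.268 to 0.004 and the share of higher calls among all calls from 68.6% to 50.8%. Under that scaling the 7 calls of the 8 genes kept their direction, with Agt at 1.03 (adjusted p = 0.00137).

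**Figure D4:**
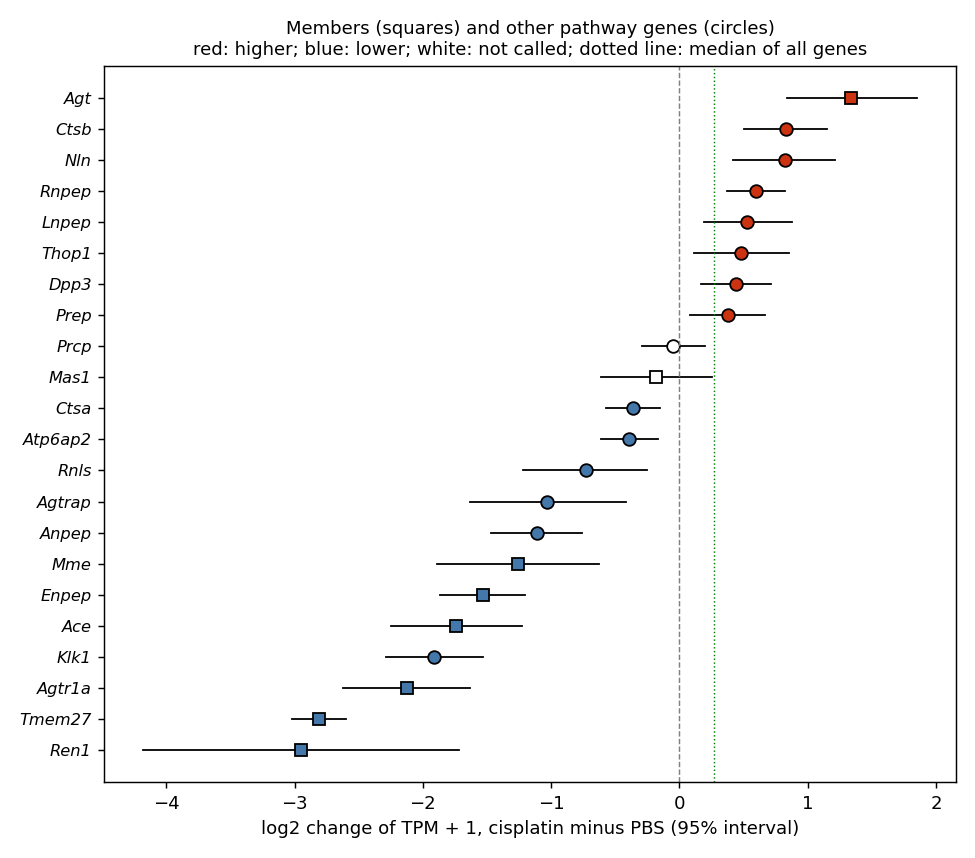
Log2 change of TPM + 1 with its 95% interval from limma, cisplatin minus PBS, for the 8 genes (squares) and the 14 tested further genes of the pathway (circles), ordered by value, in red where called higher, blue where called lower and white where not called; the dotted line is the median of all genes (0.27). Of the further genes Klk1 is lowest (-1.91) and Ctsb highest (0.83), and the 7 called higher lie to the right of the dotted line.

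The 6 that fell were led by Klk1. Klk1, the tissue kallikrein that frees kinins, fell by 1.91 (adjusted p = 6.25e-08), from 3670 ± 629 to 995 ± 246 TPM, though near-identical kallikrein genes make its counts uncertain. Anpep, aminopeptidase N, which trims angiotensin III, fell by 1.11 (adjusted p = 1.87e-05). Agtrap, which binds the type 1 receptor and draws it inside the cell, fell by 1.03 (adjusted p = 0.00525), with PBS library 1 at 87.1 TPM and the other PBS libraries at 24.1 to 31.1 TPM. Rnls, the flavoprotein renalase, fell by 0.73 (adjusted p = 0.0107), and Ctsa, a lysosomal carboxypeptidase, by 0.36 (adjusted p = 0.00502).

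Atp6ap2, the prorenin receptor and a subunit of the proton pump, measured 48.0, 50.3, 53.5 and 50.8 TPM with PBS and 44.9, 34.7, 35.8 and 38.8 TPM with cisplatin. The groups did not overlap, and cisplatin library 1 lay nearest to PBS. It fell by 0.39 (adjusted p = 0.00347).

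Most of the tested pathway genes encode peptidases, among them all 7 that rose, and also Klk1, Anpep and Ctsa, which fell. Ctsb, a lysosomal cysteine protease that can activate prorenin, rose by 0.83 (adjusted p = 0.000153), Nln, the endopeptidase neurolysin, by 0.82 (adjusted p = 0.0011) and Rnpep, aminopeptidase B, by 0.60 (adjusted p = 0.000132). These 3 also rose after median-of-ratios scaling (0.51, 0.53 and 0.29). Lnpep, Thop1, Dpp3 and Prep, with changes from 0.38 to 0.53, did not pass the test after that scaling, and under it Prcp, a prolylcarboxypeptidase (-0.05, adjusted p = 0.757 without that scaling), fell by 0.35 (adjusted p = 0.00794).

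Against cisplatin, 49.1% of all tested genes were called with NMN (15.1% higher, 34% lower) and 46.6% with NR (14.4% higher, 32.2% lower). With NMN against cisplatin 11 of the 14 pathway genes were called, 4 higher (Klk1 1.75, Anpep 0.95, Ctsa 0.30, Atp6ap2 0.27) and 7 lower. Without NMN library 2 there were 6. With NR 9 were called, 4 higher (Klk1 1.52, Anpep 0.92, Rnls 0.69, Ctsa 0.32) and 5 lower, and without 1 library 6 to 10. After median-of-ratios scaling the counts were 7 (5 higher) and 6 (5 higher), and the share of higher calls over all genes moved from 30.7% to 48.7% with NMN and from 30.9% to 48.7% with NR. Against PBS none of the 14 was called in limma with either precursor, where 6% (NMN) and 10% (NR) of all genes were called. In the same test 0 of the 14 had an unadjusted p under 0.05 with NMN and 3 with NR.

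Peptidases of mast cells and neutrophils were near 0. Ctsg, Mcpt4 and the receptor gene Mrgprd were listed at 0 in every library, and Cma1 (chymase) averaged at most 0.0575 TPM and Cpa3 at most 0.0425 TPM in any group.

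For each of the 8 genes the closest patterns among all tested genes were ranked by Pearson's r of log2(TPM + 1) over the 16 libraries, which share scaling and the large difference between groups. Tmem27 was matched most closely by Tcn2, Cpq and Cyp4b1 (r = 0.998 each). Enpep was matched by Timp3 (0.991), Nox4 (0.987) and Lipa (0.981), and Agtr1a by Ndufs1 (0.990), Car12 (0.985) and Pgam2 (0.980). Ace was matched by Glb1 (0.981), Mep1a (0.980) and Chpt1 (0.979).

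The other 4 had looser matches or none close. Ren1 was matched by H2-Q6 (0.973), the podocyte gene Podxl (0.972) and H2-Eb1 (0.969), and with group means subtracted these were 0.909, 0.903 and 0.944. Cisplatin library 1 stood apart from its group for Ren1 and for Podxl (23.94 TPM, the others 3.51 to 5.23 TPM). Its part in these correlations was not tested. Values with group means subtracted ran from 0.627 (Mas1 with Cdkal1) to 0.94 (Agtr1a with Ndufs1) for the matches of the other members. Mme was matched by A4gnt (0.960), Insig1 (0.958) and Sucla2 (0.954). Agt was matched by Slc23a3 (0.956), Gclc (0.949) and Kcnk1 (0.947), and Mas1 reached no more than 0.737 (Fbxo10).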

How the data were processed

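RNA from whole mouse kidney was sequenced in 16 libraries, 4 per group by sample title. The authors deposited TPM values, which keep no read depth, so depth and counting intervals are unknown. The listed TPM summed to 860428 to 903678 per library, and 11535 to 12549 symbols reached 1 TPM. The submitters' processing notes name the builds GRCm38 and mm10 and the tools DESeq2 1.10.1, HTSeq 0.6.1, STAR 2.4.1d and Trim Galore. What each did, the annotation, the gene lengths and the strandedness were not given in the sources used here, so overlapping and antisense genes cannot be told apart.

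Entries sharing a symbol (94 of 23982) were summed to 23935 symbols. Symbols with at least 1 TPM in at least 4 libraries (12960) were tested on log2(TPM + 1) with 1 limma model of 4 group means (limma 3.58.1, statmod 1.5.0, R 4.3.3; trend and robust moderation, 12 residual degrees of freedom, two-sided, Benjamini-Hochberg over all tested genes, threshold 0.05). Rose and fell refer to this threshold, errors are SD or SE as named, and the procedure was tested on simulated data. Positions are from GENCODE vM21 and promoters from RefSeq (GRCm38.p6). The members and gene lists were chosen with earlier results of these data known, and 2 listed genes are not reported here and were taken out of their lists before counting. The rule named all members, the pathway genes that passed the filter on low values, and the 3 closest patterns per member, and let genes of the marker lists be named beside a result they move with. Pathway genes below the filter and the 2 further genes with the shortened HNF1 palindrome (Prodh2 and Gc) were named after their values were seen. Alternatives were median-of-ratios scaling, mitochondrially encoded genes removed, a pseudocount of 0.1, a minimum of 5 TPM or none, no trend and robust moderation, only the groups compared, a replicate block and each library left out. A fit without the 3 libraries of lowest array weight (PBS 1, cisplatin 1 and cisplatin 3) was chosen after seeing the data. Python 3.11.15 and matplotlib 3.10.9 were used for tables and figures.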

Additional observations from a re-analysis of the deposited data

Results flagged for a closer look

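In 96 groups of 4 libraries examined on the log2 scale (the 8 genes, the 14 tested pathway genes, and the summed podocyte and endothelial markers), 5 had a library farther from the rest than Dixon's 95% limit for 4 values allows. Chance alone marks about 1 in 20 such groups. Ren1 in cisplatin library 1 was 61.44 TPM, with the other cisplatin libraries at 5.82 to 7.53 TPM. In the same library the summed podocyte markers were 124 TPM, with the others at 30.6 to 38.3 TPM. Agtrap in NMN library 4 was 35.34 TPM, with the others at 21.5 to 22.2 TPM. Rnpep in NMN library 3 was 32.07 TPM, with the others at 27.6 to 27.8 TPM. Rnls in PBS library 1 was 1.04 TPM, with the others at 1.36 to 1.37 TPM.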

How the results depend on the processing

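Over the alternatives, single values of the 8 genes kept direction and side of the threshold in 1157 of 1194 cases. Of the rest, 17 lost a call, 2 gained one and 18 changed sign, and counts of called genes stayed within 1.5 times in 286 of 300. No called change changed sign. Calls were lost for Mme against cisplatin, with NR as given above and, without the 3 libraries of lowest weight, with both NMN (0.83, adjusted p = 0.087) and NR (0.57, adjusted p = 0.239). They were also lost for Tmem27 with NMN against PBS, where the count of called members was 0 without trend and robust moderation (adjusted p = 0.0685), with only the groups compared (0.0542) and without the 3 libraries (0.0767), and 0 to 1 with 1 library left out. For the first and the last of these settings the cause was not tested.

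Without the 3 libraries the pathway counts were 8 for cisplatin against PBS, 7 for NMN against cisplatin and 5 for NR against cisplatin, with fewer libraries in the fit. With 1 library left out, NMN against cisplatin gave 6 to 12. After median-of-ratios scaling NMN against cisplatin gave 7 pathway genes and NR against PBS gave 1 (Atp6ap2, -0.29), and the cause was not tested. Changes of sign were all near 0: Agt in NMN against NR was 0.02 and Mas1 in NR against PBS -0.01 after median-of-ratios scaling, and without the 3 libraries Mas1 was 0.07 in cisplatin against PBS and -0.06 in NR against cisplatin. With 1 library left out, NMN against NR ranged from -0.24 to 0.14 for Ren1, -0.21 to 0.10 for Agt, -0.06 to 0.21 for Ace and -0.05 to 0.09 for Enpep, and Mas1 in NR against PBS from -0.05 to 0.15.

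The labels give the replicate numbers no meaning, so the main fit did not use them to pair the libraries. Correlations below are of deviations from group means. Among PBS, NMN and NR, same-numbered libraries correlated at 0.048 (PBS 3 with NMN 3) to 0.287 (PBS 2 with NMN 2). Those with cisplatin correlated at -0.13 (PBS 2 with cisplatin 2) to 0.105 (cisplatin 4 with NMN 4). The correlation of deviations from group means was -0.13 to 0.287 for same-numbered libraries (median 0.068, over 0.1 in 9 of 24) and -0.279 to 0.189 for others (median -0.014), and in 29 of 48 cases a library correlated best with its own number, a hint of pairing from the data and not from the design. With the replicate block the calls were 7, 7, 7, 1, 1 and 0 members over the 6 comparisons, as without it, and 1 pathway gene for NR against PBS (Klk1, -0.38). Under it NMN against NR was 0.16 (SE 0.075, adjusted p = 1) for Tmem27 and 0.26 (SE 0.221, adjusted p = 1) for Mme. In PBS, NMN and NR alike, Ren1 was lowest in library 1, then 4, then 2, and highest in library 3. In cisplatin it was highest in library 1 and lowest in library 3. Depth, which TPM does not keep, limits what can be said of Mas1 and other genes near 1 TPM.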
